A study of Mus musculus with 42 samples.

Results

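Gfi1 and 9 transcription factors that mark blood lineages were followed in ribosome-bound RNA of mouse liver. The 10 genes were Gfi1, Gfi1b, Spi1, Gata1, Klf1, Tal1, Runx1, Runx3, Ikzf1 and Cebpe, taken by name from the 47729 genes of the deposited files, and all 10 were found there. The animals were Gfi1Cre/+;Rpl22HA/HA mice, so that every library, input included, came from animals with 1 Gfi1 allele carrying the Cre knock-in and both Rpl22 alleles carrying the RiboTag. Where Cre has acted, the ribosomal protein Rpl22 carries an HA tag, and cells keep the tag, as do their descendants, whether or not they still express Gfi1. Input was RNA of whole liver homogenate, and IP was the RNA on ribosomes pulled down through the HA tag. Livers of 3 mice gave 1 input and 1 IP library in each of 7 protocols, 42 libraries in 14 groups of 3. The protocols were Tru70 and Tru4 (TruSeq with 70 ng and 4 ng of RNA), NEB (NEBNext Ultra Directional, 4 ng), NuG (NuGEN Ovation V2, 4 ng), SMTer (SMARTer Stranded, 4 ng) and the SMART-Seq v4 sets SMTseq4 (4 ng) and SMTseq0.25 (0.25 ng). The growth protocol gives the age as 30 days and the stage field of the labels as day 1, and no result uses the age. The question was which blood lineage the Cre driver marks, as far as these factors and lineage markers can show it.

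Gfi1 and its paralogue Gfi1b are zinc finger repressors that recruit the histone demethylase Kdm1a and histone deacetylases to DNA. Gfi1 acts in blood stem cells, granulocyte precursors and lymphocytes, and Gfi1b in erythroid cells and megakaryocytes. Spi1 encodes PU.1, the ETS factor of macrophages, neutrophils and B cells, and Ikzf1 encodes Ikaros, a zinc finger factor of lymphocytes and their progenitors. Runx1 sets up blood stem cells, and Runx3 acts in T cells, NK cells and dendritic cells. Cebpe drives the last steps of granulocyte maturation. Gata1, Klf1 and Tal1 are factors of the erythroid line, Gata1 and Tal1 of megakaryocytes as well. The liver forms blood before birth, and the adult organ holds Kupffer cells, its resident macrophages, beside other leukocytes in its sinusoids.

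Some of these genes are thought to regulate each other, so the bases before their starts are shown. RefSeq promoter windows on GRCm38.p6 were at hand for 8 of the 10 genes, 13 windows in all, and Spi1 and Cebpe had none. The 250 bases before each start were searched on both strands for 7 short sequences that such factors are known to bind. Their background was taken over 32851 windows of that length. The site of GATA factors, AGATAA, was in 9.99% of them. The site of PU.1, GAGGAA, was in 23.3%, and that of RUNX factors, TGTGGT, in 14.0%. Of 2 forms of the E-box that Tal1 binds with its partners, CAGCTG was in 13% and the other form, CAGATG, in 14.4%. The box of Klf1, CCACCC, was in 28.1%, and the core of GFI1 sites, AAATCA, in 12.4%. At least 1 of the 7 was in 9 of the 13 windows. The share of all windows with at least 1 of the 7 was not counted, so this number has no background and is no result about these genes. The 6 sequences below stand for the driver gene, its paralogue, a pair of genes that rose in all 6 count protocols (Ikzf1, Runx1) and a pair with erythroid roles (Tal1, Gata1), and they were chosen among the 8 windows that overlap no exon in GENCODE M21. Capitals mark the matches, which read as the reverse complement where the match is on the other strand.
Gfi1, chr5:107724344-107724593, minus strand: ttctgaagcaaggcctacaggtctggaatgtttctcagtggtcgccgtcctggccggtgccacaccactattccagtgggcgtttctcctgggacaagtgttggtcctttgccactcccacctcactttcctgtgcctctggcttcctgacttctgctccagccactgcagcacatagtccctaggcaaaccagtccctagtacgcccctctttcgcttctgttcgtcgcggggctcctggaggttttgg
Gfi1b, chr2:28621983-28622232, minus strand: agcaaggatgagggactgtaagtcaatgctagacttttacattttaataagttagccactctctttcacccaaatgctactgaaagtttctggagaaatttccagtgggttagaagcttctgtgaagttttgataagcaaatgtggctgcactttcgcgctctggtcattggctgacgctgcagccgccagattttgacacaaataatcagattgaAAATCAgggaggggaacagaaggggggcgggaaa
Ikzf1, chr11:11689927-11690176, plus strand: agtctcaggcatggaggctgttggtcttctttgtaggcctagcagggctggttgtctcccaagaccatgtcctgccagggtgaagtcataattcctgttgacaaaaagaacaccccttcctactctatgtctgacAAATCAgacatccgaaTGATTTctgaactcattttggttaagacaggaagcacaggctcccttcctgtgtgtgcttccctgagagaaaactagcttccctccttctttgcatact
Runx1, chr16:92697330-92697579, minus strand: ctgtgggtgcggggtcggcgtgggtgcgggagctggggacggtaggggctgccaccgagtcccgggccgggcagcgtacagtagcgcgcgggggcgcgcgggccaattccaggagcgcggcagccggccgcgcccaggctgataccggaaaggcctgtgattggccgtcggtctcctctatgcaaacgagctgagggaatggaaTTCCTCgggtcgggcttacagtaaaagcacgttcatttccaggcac
Tal1, chr4:115056176-115056425, plus strand: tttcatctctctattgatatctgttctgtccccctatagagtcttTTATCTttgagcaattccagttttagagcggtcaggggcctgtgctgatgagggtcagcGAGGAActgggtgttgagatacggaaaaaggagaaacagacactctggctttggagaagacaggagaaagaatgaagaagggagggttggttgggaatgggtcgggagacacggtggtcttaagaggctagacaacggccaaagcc
Gata1, chrX:7967911-7968160, minus strand: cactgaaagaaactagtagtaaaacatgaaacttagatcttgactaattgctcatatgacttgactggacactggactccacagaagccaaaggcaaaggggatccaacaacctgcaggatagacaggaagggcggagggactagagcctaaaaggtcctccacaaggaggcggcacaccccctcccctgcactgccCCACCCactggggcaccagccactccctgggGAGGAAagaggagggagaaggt
Gfi1b had AAATCA 34 bases before its start, and Ikzf1 had it 115 bases before on the gene strand and 99 bases before on the other strand. GAGGAA lay 22 bases before the Gata1 start, 146 bases before that of Tal1 and, on the other strand, 46 bases before that of Runx1. Tal1 also had AGATAA on the other strand, 205 bases before its start, and Gata1 had CCACCC 53 bases before. The Gfi1 window shown held none of the 7. Its other window, which overlaps exons, held CCACCC 6 bases before the start and, on the other strand, 111 bases before. The windows of Tal1 and Ikzf1 that overlap no exon and are not shown held 0 and 1 matches, fewer than those shown. A match describes these letters only, since binding was not measured.

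Exon counts were used for 6 protocols and the deposited RPKM for SMTer. CPM is a gene's count scaled to the summed counts of its library. Totals per library ranged from 464199 to 45466334 counts, and from 3223153 outside SMTer. For 34 libraries the number of genes with a read equals the one the study lists for that library. The other 8 are the replicate 3 libraries of NEB, NuG, SMTer and Tru4, in which the number stands at the other fraction, and their input and IP labels were exchanged. With the fractions as labelled, no gene passed the test in any of these 4 protocols (edgeR or limma, with 37 genes at an unadjusted p under 0.05 in Tru4, 293 in NEB, 91 in NuG and 28 in SMTer), so every result below for them rests on the exchange. The SMART-Seq v4 libraries were sequenced at another centre than the rest, so that kit and centre cannot be told apart. Changes are log2 changes of IP against input with TMM scaling, and a call is a Benjamini-Hochberg adjusted p under 0.05 over all genes tested. TMM sets the bulk of genes near 0 (medians from -0.05 to 0.06), and scaling by library totals instead raised the median by 0.43 to 1.58, the most in NuG. In NuG the calls were 2979 higher and 2590 lower with TMM, and 9064 and 328 with library totals.

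Spi1, Ikzf1, Runx1 and Runx3 were higher in IP in all 3 mice in all 7 protocols, with no overlap between IP and input. A gene with every IP library above every input library in all 7 protocols was found for 5.28% of the 30060 genes with a count. All 4 passed the test in each of the 6 count protocols, where 5.46% of the genes tested in all 6 did so. They were the only members to do so. In Tru70, 4 of 7 members tested were higher and none lower, where 18.1% of all genes tested were higher and 16.7% lower. In Tru4, 5 of 9 were higher and 2 lower (25.9% and 24.2% of all genes). In NEB, 4 of 4 were higher (5.82% higher and 5.34% lower of all genes), and in NuG 4 of 5 (24.0% and 20.9%). In SMTseq4, 6 of 8 were higher and 1 lower (30.4% and 28.7%), and in SMTseq0.25 4 of 6 were higher and none lower (19.8% and 17.1%). The members left out of each test were those with too few reads, most often Gfi1b, Gata1 and Gfi1. A gene with enough reads in IP alone was tested, and if near 0 in input it could only be called higher. Examples are Runx1 and Runx3 in NEB, with 2 and 1 reads in input, and Runx3 in SMTseq0.25, with 1. The counts of members called higher were thus partly fixed by the filter. In this bulk RNA, more tagged cells of a type and more RNA per such cell cannot be told apart. No library is an IP from animals without Cre, so how much IP RNA came from untagged cells was not tested.

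**Figure D1:**
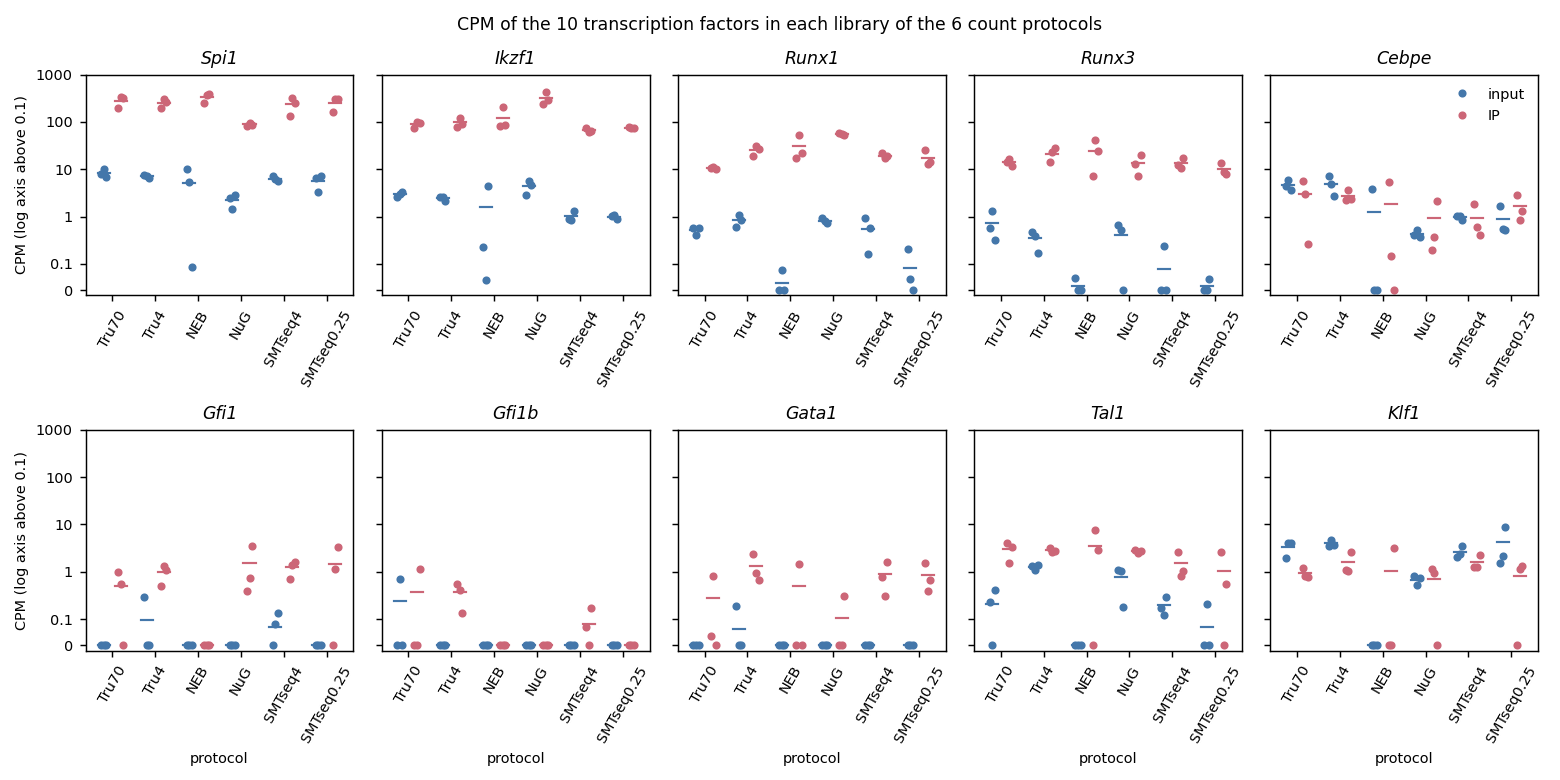
CPM of each of the 10 factors (log axis above 0.1 CPM, linear below) in the 3 input and 3 IP libraries of the 6 count protocols, with a bar at the mean. Spi1, Ikzf1, Runx1 and Runx3 lie above their input libraries in every protocol, while the other 6 overlap or lie low in at least 1 protocol.

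Spi1 (chromosome 2, 91082390 to 91115756, plus strand) had the highest IP level of the members per exonic kb in 5 of the 6 count protocols, all but NuG. In Tru70 its CPM was 7.91, 9.91 and 6.79 in the input libraries of mice 1 to 3, and 200.5, 335 and 313 in their IP libraries. The means were 8.20 ± 1.58 and 283 ± 72.0 (SD, n = 3). The lowest IP library was thus far above the highest input library. The fitted change was 4.66 ± 0.25 (SE, edgeR, adjusted p = 5.2e-06). Tru4, with less of the same RNA, gave 7.48, 7.06 and 6.62 CPM in input and 196, 297 and 262 in IP, and a change of 4.63 ± 0.17 (edgeR, adjusted p = 5.5e-07). The input values of these TruSeq sets overlap, as do the IP values. SMTseq4 gave 7.04, 6.30 and 5.59 CPM in input and 131, 327 and 249 in IP (change 4.65 ± 0.30), and SMTseq0.25 gave 6.51, 3.33 and 7.28 in input and 159, 302 and 301 in IP (4.98 ± 0.38). In both, as in Tru70 and Tru4, replicate 1 had the lowest IP value of the 3, but it may not be the same mouse in the 2 kits. NuG had lower levels, with 2.41, 1.44 and 2.89 CPM in input and 83.6, 94.7 and 87.5 in IP (3.74 ± 0.29). NEB had 10.1, 5.29 and 0.0894 CPM in input and 251, 371 and 380 in IP (5.53 ± 1.16). The third NEB input library held 2 reads of Spi1, and the other 2 held 226 and 139.

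Ikzf1 (chromosome 11, 11685003 to 11772926, plus strand) moved like Spi1. In Tru70 its CPM was 2.60, 2.93 and 3.36 in input and 75.5, 102 and 94.0 in IP, with means of 2.96 ± 0.385 and 90.4 ± 13.5 (SD, n = 3). The change was 4.49 ± 0.24 (edgeR, adjusted p = 5.2e-06). IP libraries were 27.9 to 34.7 times their own mouse's input, a narrow range. Tru4 gave 2.52, 2.64 and 2.18 CPM in input and 79.3, 122 and 89.7 in IP, a change of 4.79 ± 0.20. In SMTseq0.25, made from the least RNA, the values were 1.01, 1.07 and 0.871 CPM in input and 78.6, 74.0 and 73.5 in IP, a change of 5.78 ± 0.28 (edgeR, adjusted p = 1.3e-05). The IP levels of SMTseq0.25 lay within the range of those of Tru70 or just below it. SMTseq4 was close to it, with 0.853 to 1.32 CPM in input and 62.1 to 74.9 in IP (5.47 ± 0.27). NuG stood out for the level, with 2.81, 5.51 and 4.70 CPM in input and 240, 424 and 285 in IP, all above the IP libraries of the other kits. The change in NuG was 4.60 ± 0.29. NEB input was uneven, at 0.224, 0.0380 and 4.43 CPM, against 79.9, 203 and 87.9 in IP (5.85 ± 1.45).

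Runx1 (chromosome 16, 92601466 to 92826149, minus strand) was low in input and higher in IP in every mouse. In Tru70 it had 0.581, 0.414 and 0.561 CPM in input and 10.6, 11.1 and 10.1 in IP, a change of 3.93 ± 0.60 (edgeR, adjusted p = 9.4e-04). The 3 IP libraries lay close together, far above the 3 input libraries. Tru4 gave 0.607, 1.10 and 0.848 CPM in input and 18.7, 30.4 and 26.4 in IP (4.34 ± 0.28), so that every Tru4 IP library was above every Tru70 IP library. NuG again had the highest IP levels, 57.4, 54.7 and 52.7 CPM against 0.935, 0.788 and 0.723 in input (4.48 ± 0.33). SMTseq4 had 21.7, 17.5 and 18.9 CPM in IP and 0.163 to 0.933 in input (4.59 ± 0.45). With SMTseq0.25 and NEB, input was close to 0. SMTseq0.25 had 5, 1 and 0 reads in input and 356, 191 and 206 in IP. NEB had 0, 2 and 0 reads in input and 266, 1413 and 368 in IP, a ratio of 1229 over the pooled libraries (95% exact counting interval 340 to 10150). Exons of Runx1 share 106 bases with Gm26626 on the other strand, and reads there cannot be assigned to a strand.

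Runx3 (chromosome 4, 135120652 to 135177990, plus strand) had 0.581, 1.30 and 0.311 CPM in Tru70 input and 14.3, 16.7 and 11.9 in IP. Its change was 3.86 ± 0.64 (edgeR, adjusted p = 0.0016). Tru4 gave 0.479, 0.396 and 0.170 CPM in input and 13.9, 22.9 and 27.5 in IP, a change of 5.40 ± 0.37 (edgeR, adjusted p = 4.7e-06). The IP ranges of these TruSeq sets overlap, and the Tru4 input is at the lower end of the Tru70 input. In NuG it had 0.668, 0.525 and 0 CPM in input and 13.03, 7.14 and 19.9 in IP (3.36 ± 0.71). In SMTseq4 it had 0, 6 and 0 reads in input and 175, 207 and 293 in IP (6.77 ± 0.73). A single read stood in the 3 input libraries of SMTseq0.25, against 188, 133 and 116 in IP, a pooled ratio of 711 (95% exact counting interval 127 to 28150). NEB likewise had 1 read in input and 107, 1142 and 406 in IP, a pooled ratio of 1987 (356 to 78530). These intervals cover counting error only, since reads copied by PCR are not independent molecules. In NEB, Runx3 lost its call when libraries were paired by mouse (replicate block, change 9.88, edgeR, adjusted p = 0.10).

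The NEB calls of these 4 genes were lost when single mice were left out. Without replicate 1 and without replicate 2, none of the 4 passed (adjusted p from 0.055 to 0.17 and from 0.16 to 0.28, edgeR), and without replicate 3 Spi1 and Ikzf1 did. Their changes stayed between 4.74 and 12.34 in these fits. In Tru70, Tru4, NuG, SMTseq4 and SMTseq0.25 each of the 4 kept its call whichever mouse was left out.

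**Figure D2:**
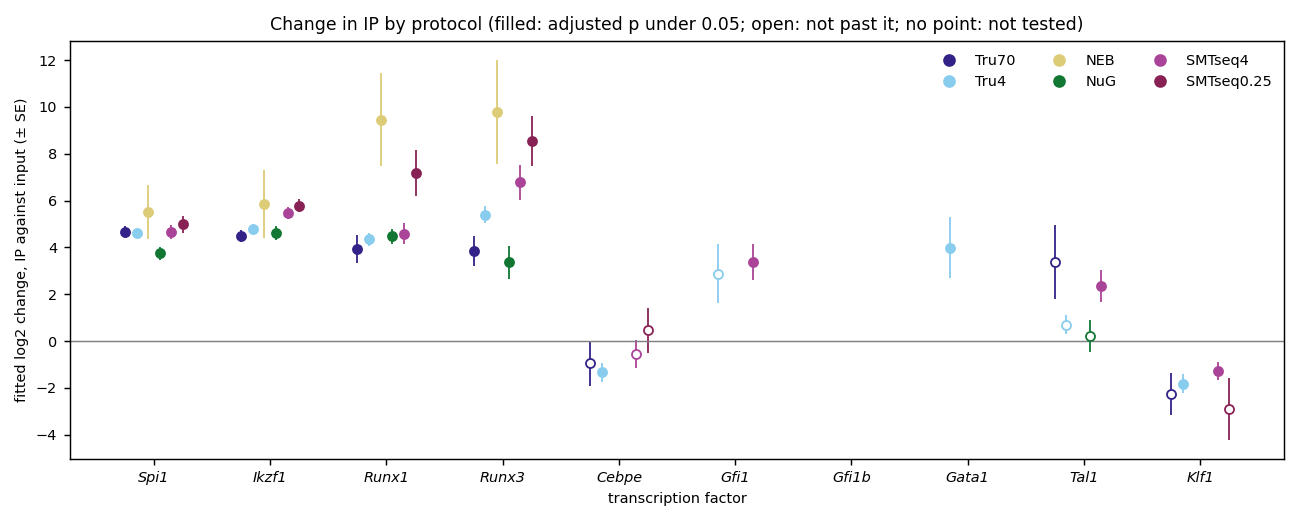
Fitted log2 change in IP against input with its SE (y) for each factor (x), 1 point per count protocol, filled where the adjusted p was under 0.05. The 4 factors on the left lie between 3.36 and 9.79 in all 6 protocols, with the longest error bars in NEB, and Gfi1b has no point because it was not tested.

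Gfi1, the gene whose locus carries Cre (chromosome 5, 107716657 to 107726036, minus strand), was rare in the RNA. It had reads in 16 of 21 IP libraries and 3 of 21 input libraries. Tru70 input had no Gfi1 read, and Tru70 IP had 0.968, 0.537 and 0 CPM (27, 16 and 0 reads), which is at least 14.8-fold above the 3 counts taken as the smallest number that the pooled input could show. In SMTseq4 it had 0, 0.0813 and 0.132 CPM in input and 0.694, 1.38 and 1.62 in IP. All 3 mice were higher there and the fractions did not overlap. The SMTseq4 change of 3.38 ± 0.76 passed (edgeR, adjusted p = 0.0035), the only call of Gfi1, and it held without any 1 mouse. Tru4 had 0.288, 0 and 0 CPM in input and 0.499, 1.33 and 1.09 in IP, a change of 2.88 ± 1.27 that did not pass (edgeR, adjusted p = 0.089). Without replicate 1, the only mouse with Gfi1 reads in Tru4 input, it passed (change 8.19, adjusted p = 0.0057). NuG input had no read and NuG IP had 2, 4 and 11 reads, at least 8.54-fold above the floor of the pooled input. SMTseq0.25 input had none either, and its IP had 0, 17 and 49 reads, at least 35.8-fold above that floor. Reads copied by PCR are not independent molecules, and the study lists high duplication for the TruSeq IP libraries. Folds above a floor, for Gfi1 here and for Gfi1b and Gata1 below, are thus bounds on reads and not firm limits on RNA. The 6 NEB libraries had no Gfi1 read, which allows up to 0.110 to 0.198 CPM in each NEB IP library. Gfi1 exons share 101 bases with A430072P03Rik on the other strand. The Cre allele also limits what Gfi1 reads stand for, since the files do not separate transcripts of the knock-in allele from those of the other.

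Gfi1b (chromosome 2, 28609450 to 28621982, minus strand) was near or at 0 throughout and had too few reads for a test of IP against input in any protocol. Tru4 had no read in input and 10, 12 and 5 in IP, at least 12.1-fold above the floor, with all 3 mice higher. Tru70 had 0, 24 and 0 reads in input and 0, 0 and 35 in IP, so the reads came from 1 library of each fraction and from different mice. SMTseq4 had 1, 0 and 3 reads in IP and none in input. NEB, NuG and SMTseq0.25 had none in any library. Of the members, Gfi1b was thus seen in the fewest IP libraries, 8 of 21.

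Of the erythroid factors, Gata1 (chromosome X, 7959260 to 7978071, minus strand) appeared in IP and hardly in input. It had reads in 15 of 21 IP libraries and 2 of 21 input libraries. Tru4 gave 0.192, 0 and 0 CPM in input and 2.33, 0.945 and 0.652 in IP, a change of 3.99 ± 1.31 (edgeR, adjusted p = 0.030). This single call of Gata1 was lost without replicate 2 (3.57, adjusted p = 0.10) and without replicate 3 (3.79, adjusted p = 0.089). SMTseq4 had no read in input and 0.764, 0.307 and 1.62 CPM in IP, at least 22.95-fold above the floor, and SMTseq0.25 had none in input and 1.50, 0.399 and 0.681 CPM in IP, at least 20.1-fold. The fractions did not overlap in these 3 protocols. In Tru70 the IP reads were 1, 24 and 0, in NEB 0, 40 and 0, and in NuG 0, 0 and 1, with none in input, so that 1 mouse carried nearly all of them.

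Klf1, an activator of globin genes (chromosome 8, 84901928 to 84905291, plus strand), was the one erythroid factor that was lower in IP. In Tru70 it had 1.98, 4.05 and 4.11 CPM in input and 1.22, 0.805 and 0.770 in IP. Every IP library lay below every input library, but the change of -2.26 ± 0.90 did not pass (edgeR, adjusted p = 0.084). In Tru4 it had 3.51, 4.60 and 3.73 CPM in input and 1.11, 1.05 and 2.64 in IP, and the change of -1.82 ± 0.42 passed (edgeR, adjusted p = 0.0054). In SMTseq4, 2.04, 2.32 and 3.51 CPM in input stood against 1.25, 1.28 and 2.26 in IP, a change of -1.28 ± 0.40 (edgeR, adjusted p = 0.019). All 3 mice were lower in IP in each of these protocols and in SMTseq0.25, which had 1.51, 2.14 and 8.80 CPM in input and 0, 1.13 and 1.29 in IP and did not pass (-2.89 ± 1.32, adjusted p = 0.12). NuG had 0.525 to 0.802 CPM in input and 0 to 1.17 in IP, and NEB had reads in 1 IP library only (53), so neither follows this order. The Tru4 call was lost without replicate 2 (-1.45, adjusted p = 0.069). The SMTseq4 call was lost without replicate 2 (-1.21, adjusted p = 0.097), without replicate 3 (-1.27, adjusted p = 0.073) and with library totals (-0.71, adjusted p = 0.16).

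Tal1, the partner of Gata1 in the erythroid complex (chromosome 4, 115056426 to 115071755, plus strand), was higher in IP in 17 of 21 pairs of libraries. Tru70 had 0.233, 0 and 0.405 CPM in input and 3.98, 1.51 and 3.37 in IP, without overlap, and the change of 3.37 ± 1.57 did not pass (edgeR, adjusted p = 0.14). Tru4 had 1.31, 1.08 and 1.36 CPM in input and 3.16, 2.66 and 2.72 in IP, without overlap, and the change of 0.69 ± 0.40 did not pass either (edgeR, adjusted p = 0.18). The Tru4 values are tight in both fractions, and input there is above all 3 Tru70 inputs. SMTseq4 had 0.170, 0.122 and 0.298 CPM in input and 2.64, 0.817 and 1.04 in IP, a change of 2.35 ± 0.69 that passed (edgeR, adjusted p = 0.014) and was lost without replicate 1 (1.50, adjusted p = 0.10). NuG had 1.07, 1.05 and 0.181 CPM in input and 2.92, 2.44 and 2.79 in IP. Its change of 0.21 ± 0.68 did not pass (edgeR, adjusted p = 0.83), and with library totals in place of TMM it was 1.75 and passed (edgeR, adjusted p = 0.032), as did the Tru4 change (1.19, adjusted p = 0.030). SMTseq0.25 had 0, 0.205 and 0 CPM in input and 2.58, 0 and 0.545 in IP, and NEB 0 in input and 0, 7.47 and 2.94 in IP, so that 1 IP library of each had no read.

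Cebpe (chromosome 14, 54710360 to 54712174, minus strand) showed no common direction, and its fractions overlapped in all 7 protocols. Tru70 had 4.38, 5.77 and 3.68 CPM in input and 5.70, 2.99 and 0.257 in IP. Tru4 had 7.09, 4.80 and 2.74 CPM in input and 2.22, 3.64 and 2.37 in IP, and the change of -1.34 ± 0.39 passed (edgeR, adjusted p = 0.019). This was its only call, and it was lost without replicate 1 (-0.89, adjusted p = 0.12), without replicate 2 (-1.56, adjusted p = 0.066) and with library totals (-0.83, adjusted p = 0.13). SMTseq4 had 1.02, 1.02 and 0.860 CPM in input and 1.80, 0.613 and 0.405 in IP, without a call (-0.56 ± 0.62, adjusted p = 0.46). In SMTseq0.25 all 3 mice were higher in IP, from 1.64, 0.534 and 0.523 to 2.79, 0.864 and 1.29 CPM, with overlap and no call (0.45 ± 0.97, edgeR, adjusted p = 0.75). NEB had nearly all of its reads in mouse 1, with 3.81 CPM in input and 5.36 in IP.

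In SMTer the deposited RPKM was used, which the values show to be scaled to the whole gene with its introns. Only Spi1 passed the minimum of 1 RPKM in 3 libraries. It had 0.119, 0.0479 and 0.106 RPKM in input and 1.29, 1.34 and 2.70 in IP, and on the log2(RPKM + 1) scale the change was 1.31 ± 0.30 (limma, adjusted p = 2.4e-04), where 13.2% of the 5580 genes tested were higher and 6.99% lower. Spi1 reached that minimum through its IP libraries alone. The call was lost with no minimum RPKM (1.31, limma, adjusted p = 0.083) and without replicate 1 (1.45, limma, adjusted p = 0.079). The RPKM of most genes gave back whole reads over the gene, 85.7% of the genes with a value within 0.02 of a whole number in all 6 libraries. On these reads, a test chosen after the data were seen, 4 of 5 members tested were higher, against 20.1% of all genes. Runx3 had 25, 9 and 22 reads over its gene in input and 326, 196 and 580 in IP, a change of 3.96 ± 0.25 (edgeR, adjusted p = 1.6e-06). Spi1 went from 198, 53 and 146 reads to 1926, 1352 and 3565 (3.84 ± 0.17), and Ikzf1 from 234, 55 and 202 to 1437, 924 and 2360 (3.04 ± 0.19). Runx1, the longest gene, went from 211, 97 and 239 to 684, 417 and 997 (1.61 ± 0.21), the smallest change of the 4. Tal1 had 63, 8 and 67 reads in input and 47, 9 and 62 in IP and did not pass (-0.49 ± 0.56, edgeR, adjusted p = 0.53). Gfi1 had no read over its gene in the 3 input libraries and 7, 14 and 21 in IP. Gata1 had 4, 0 and 0 against 0, 11 and 21, and Gfi1b 0, 0 and 0 against 2, 0 and 4. Klf1 again lay below input in every IP library, at 0.250, 0.170 and 0.216 RPKM in input and 0.0995, 0.0687 and 0.120 in IP.

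**Figure D3:**
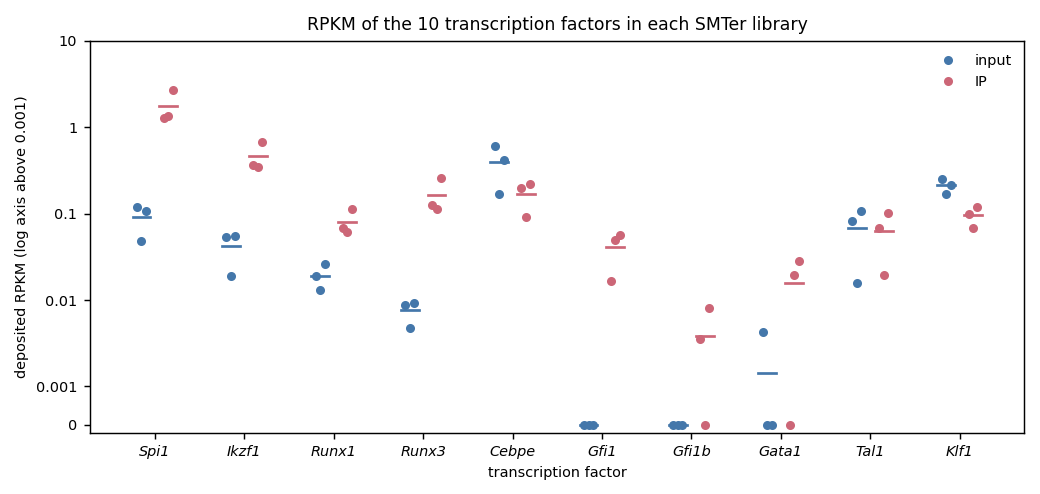
Deposited RPKM of each factor (log axis above 0.001 RPKM, linear below) in the 3 input and 3 IP libraries of SMTer, with a bar at the mean. Spi1, Ikzf1, Runx1, Runx3 and Gfi1 lie above input without overlap, and Klf1 lies below it.

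Whether a change differed between protocols was tested against Tru70, the protocol with the most RNA. None of the 43 tests of members passed (edgeR interaction, lowest adjusted p = 0.12), and 10 had an unadjusted p under 0.05. Of the 43, 4 could not pass, those of Gfi1 in NuG and SMTseq0.25 and of Gata1 in SMTseq4 and SMTseq0.25, where input had no read and the SE was 2391 or more. Over all genes, 0% of tests passed in Tru4, 0.00652% in NEB, 0.279% in NuG, 0.370% in SMTseq4 and 0.167% in SMTseq0.25. The lowest unadjusted values among members were those of Ikzf1 and Runx3 in SMTseq0.25, whose changes were larger than in Tru70 by 1.34 ± 0.33 (unadjusted p = 0.0012, adjusted p = 0.12) and 4.82 ± 1.24 (unadjusted p = 0.0015, adjusted p = 0.13). Spi1 differed from Tru70 by -0.06 ± 0.25 in Tru4, 0.05 ± 0.35 in SMTseq4 and 0.35 ± 0.40 in SMTseq0.25, and by -0.99 ± 0.35 in NuG (adjusted p = 0.26). Calls made in 1 protocol and missed in another, such as those of Gfi1, Gata1, Klf1 and Tal1, are therefore not shown to be differences between protocols, nor, for Gfi1 and Gata1 in those 4 fits, to be alike.

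Per kilobase of exon, Spi1 and Ikzf1 took the first 2 places among the members in IP in all 6 count protocols. Spi1 stood at 105 ± 26.7 CPM per exonic kb in Tru70 IP (SD, n = 3) and Ikzf1 at 15.7 ± 2.34, without overlap. Runx3 followed at 2.85 ± 0.48, Cebpe at 2.40 ± 2.19 and Runx1 at 0.882 ± 0.044, and of these Cebpe overlapped both of its neighbours. Tal1 (0.674 ± 0.294), Klf1 (0.609 ± 0.163), Gfi1b (0.205 ± 0.354), Gfi1 (0.157 ± 0.152) and Gata1 (0.115 ± 0.187) came last, and no neighbours among them were apart. NuG reversed the first pair, with Ikzf1 at 54.7 ± 16.7 and Spi1 at 32.9 ± 2.09, apart from each other. Gfi1 ranked from 7 to 9 of the 10 over the protocols, below Klf1 in Tru70, Tru4, NEB, SMTseq4 and SMTseq0.25. Against all genes with reads, the mean IP level of Spi1 per exonic kb was at the 97.2 percentile in Tru70, from 61.9 in input, and Ikzf1 at 82.0, from 33.0. Klf1 went the other way, from the 55.9 percentile in input to 25.0 in IP, and Gfi1 was at 11.7 in IP.

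The markers of 14 cell types were set beside the factors, with a list of 40 other blood transcription factors and 2 lists of partners. In Tru70, markers of blood cells were higher in IP across lineages, while those of hepatocytes and most of those of stellate cells and sinusoidal endothelium were lower. Of all genes tested in Tru70, 18.1% were higher and 16.7% lower. These shares, and those given above for the other protocols, are the background of the list counts below. All 12 Kupffer cell and macrophage genes were higher, with a median change of 4.87, where the median over all genes tested was -0.03. Clec4f, a lectin of Kupffer cells, rose from 122.8 to 147.6 CPM in input to 6314 to 8647 in IP (5.37 ± 0.22, edgeR, adjusted p = 3.4e-06), and Cd5l, a protein secreted by macrophages, from 104 to 120 to 3419 to 6055 (5.06 ± 0.24). Their summed level ranged from 490.5 to 569 CPM in input and from 20120 to 29560 in IP. All 5 monocyte genes tested were higher (of 6 listed, median 4.92). Of the neutrophil and granulocyte precursor genes, 5 of 10 tested were higher (12 listed, median 4.46). These 5 included S100a9, which went from 0.543 to 2.80 CPM in input to 67.6 to 134 in IP, and S100a8. Another 5 did not pass, with changes from 0.02 (Prtn3) to 4.60 (Ltf), both named after their values were seen. In the other count protocols 11 of 11 tested were higher in Tru4 (25.9% of all genes) and 10 of 10 in SMTseq4 (30.4%). In NuG 5 of 5 were higher (24.0%), in SMTseq0.25 8 of 10 (19.8%) and in NEB 2 of 3 (5.82%), and none was lower in any. Mast cell, basophil and eosinophil genes could not be tested in Tru70, with all 7 at 0 in input and 5 at 0 in IP.

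Lymphoid markers were higher as well. In Tru70, 9 of 10 T cell genes tested (11 listed, median 5.34), 6 of 7 of NK and innate lymphoid cells (8 listed, median 4.88), 8 of 8 of B and plasma cells (median 5.25) and 7 of 8 of dendritic cells (median 5.11) were higher, and none was lower. Ighm, the heavy chain of IgM, had 3.23 to 8.06 CPM in input and 205 to 326 in IP, and Cd4 had 0.405 to 1.94 in input and 34.1 to 55.2 in IP. Summed over the list, the IP level was 35.4 to 54.2 times the input of the same mouse for Kupffer cells and macrophages, 35.3 to 52.7 times for monocytes, 39.3 to 63.4 times for T cells and 35.9 to 88.1 times for B and plasma cells. These 4 ranges overlap. Neutrophil and granulocyte precursor genes were at 17.2 to 54.9 times and NK and innate lymphoid cell genes at 19.4 to 44.2 times, ranges that overlap these 4 and reach lower. By this sum dendritic cell genes were at 9.41 to 18.55 times, although their median change was not low. Their summed input was 8.52 to 9.42 CPM. Zbtb46, named after its values were seen, had a mean of 4.91 CPM in input and 9.01 in IP. It did not pass (0.50 ± 0.52, edgeR, adjusted p = 0.52). Megakaryocyte and platelet genes were at 20.1 to 34.1 times.

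The IP libraries of Klf1 lay below those of input in Tru70, Tru4, SMTseq0.25 and SMTer, with a call only in Tru4 among these. In SMTseq4 it was called lower with overlap, and NEB and NuG did not follow this order. Erythroid markers were higher in IP. In Tru70, 7 of 9 tested were higher (12 in the files, median 5.84) and none lower (medians from 3.77 in NuG to 6.25 in Tru4 over the count protocols), and their sum was 75.5 to 89.8 times the input, from 1560 to 2514 CPM in input to 129500 to 225800 in IP. Hbb-bs, a beta globin, had 625 to 1048 CPM in input and 61740 to 104700 in IP. The globin genes are nearly identical copies, so that their counts are uncertain where reads match more than 1 of them. Epor, the receptor for erythropoietin, had means of 2.18 CPM in input and 8.20 in IP and did not pass (1.50 ± 0.72, edgeR, adjusted p = 0.14). The 2 genes Alas2, the first enzyme of heme synthesis in red cells, and Slc4a1, the anion exchanger of their membrane, were higher by 2.81 ± 0.46 and 4.61 ± 1.34. Epor, Alas2 and Slc4a1 were chosen after their values were seen. How far erythroid RNA or other blood lineages contribute to the changes of Gata1, Tal1 and Spi1 was not tested.

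**Figure D4:**
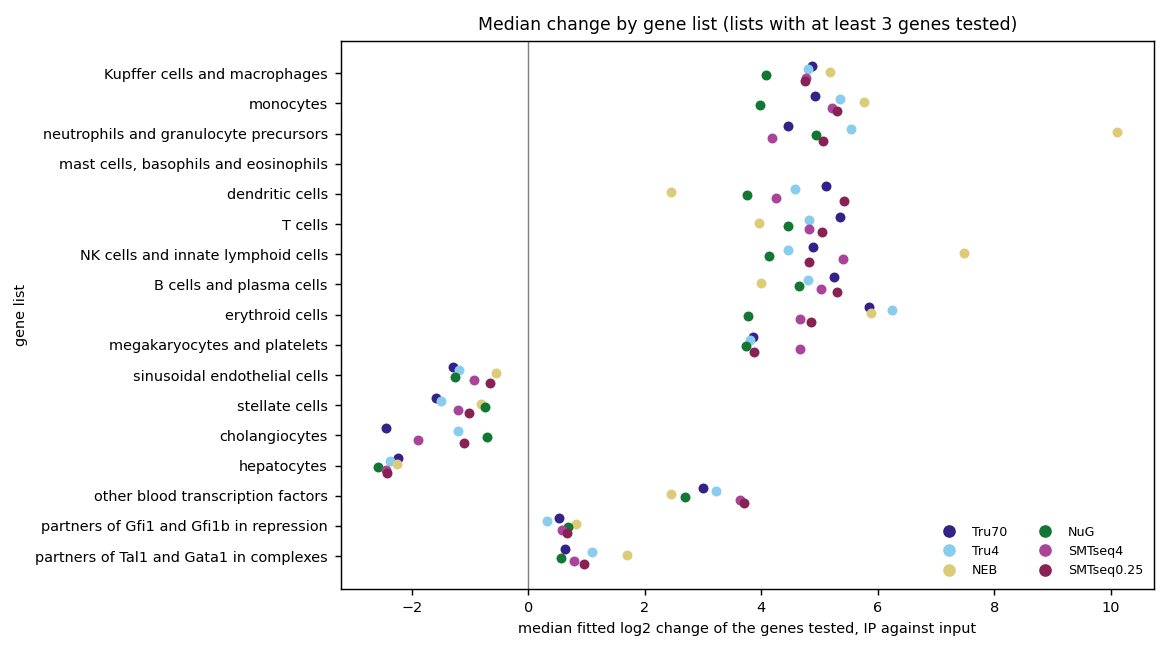
Median fitted log2 change in IP against input (x) of the genes tested in each list (y), 1 point per count protocol, for lists with at least 3 genes tested. The 9 blood lists with points lie above 0 in every protocol plotted, and the hepatocyte, stellate, endothelial and cholangiocyte lists lie below it with TMM scaling. With library totals the last 3 are above 0 in NuG, and the cholangiocyte list also in NEB, where too few of its genes were tested to be plotted.

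All 10 hepatocyte genes were lower in each of the 6 count protocols, with medians from -2.59 to -2.23. Their sum in Tru70 IP was still 31720 to 32900 CPM, 0.190 to 0.201 of the input of the same mouse, with Alb the largest part. Of 12 sinusoidal endothelial genes, 7 were lower in Tru70 and 1 was higher (median -1.30). Their summed CPM, which has no TMM scaling, was 1.09 to 1.58 times the input of the same mouse in Tru70. It was above input in every mouse of the 6 count protocols (1.04 to 3.92 times). Without TMM the log2 change of genes in general is higher, by a median of 0.43 in Tru70 and 1.58 in NuG. A sum above input thus does not by itself show a rise against other genes. In Tru70 IP the largest part of the sum by mean was Cdh5 (134 to 305 CPM). Of the 12 genes, 4 were higher and 8 lower in SMTseq4, 4 and 4 in SMTseq0.25, 2 and 8 in Tru4 and NuG, and 1 and 0 in NEB. Stab2 (0.51 ± 0.20, adjusted p = 0.073) and Pecam1 (0.80 ± 0.33, adjusted p = 0.088) did not pass in Tru70 and were named after their values were seen. The gene that rose was Cdh5, a cadherin of endothelial junctions, from 27.6 to 33.8 CPM to 134 to 305 (2.46 ± 0.26, edgeR, adjusted p = 1.3e-04), and it was called in all 7 protocols. Dnase1l3 had 61.3 to 83.3 CPM in input and 123 to 133 in IP and did not pass (0.36 ± 0.19, adjusted p = 0.20). With library totals the endothelial and stellate medians stayed below 0 in 5 protocols and were 0.32 and 0.84 in NuG. Stellate genes were lower in 7 of 9 in Tru70 and higher in none (median -1.58). Of 5 cholangiocyte genes tested, Krt19 and Spp1 were lower (median -2.44), Krt19 being named after its values were seen. The cholangiocyte median was 0.32 in NEB and 0.86 in NuG with library totals.

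Of the 40 other blood transcription factors, 38 were tested in Tru70, 22 were higher and 3 lower (median 3.0), beside 18.1% and 16.7% of all genes. The factors that rose spread over lineages. Among them Irf8, a factor of monocytes and dendritic cells, had means of 7.56 CPM in input and 229 in IP (4.48 ± 0.21, edgeR, adjusted p = 3.9e-06). Nr1h3, the liver X receptor alpha, rose by 1.10 ± 0.17, and Maf, a factor of macrophages, rose by 2.77 ± 0.20. Pax5, which fixes the B cell fate, rose by 4.43 ± 0.55, and Eomes, a factor of NK and T cells, had no read in input and a mean of 2.57 CPM in IP (adjusted p = 0.013). Spic, a factor of red pulp and bone marrow macrophages, rose by 4.70 ± 1.08. Among the 3 that fell were Cebpa (-0.83 ± 0.22), which hepatocytes also express, and Zfpm1 (-1.53 ± 0.27), the cofactor of Gata1. Cebpa was not called with library totals (-0.39, adjusted p = 0.25). Nfe2, a factor of megakaryocytes and erythroid cells, had means of 4.41 CPM in input and 4.28 in IP and did not pass (-0.48 ± 0.63, adjusted p = 0.62), and Gata2 did not pass either (0.66 ± 1.11, adjusted p = 0.71). Apart from Cebpa and Nr1h3, the genes named here were chosen after their values were seen.

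Of 10 partners of Gfi1 and Gfi1b in repression, 9 were tested in Tru70 and 2 were higher, Hdac2 (1.09 ± 0.22, edgeR, adjusted p = 0.0050) and Ehmt2 (0.55 ± 0.17, adjusted p = 0.034), with a median of 0.52 and none lower. Of all genes tested in Tru70, 18.1% were higher and 16.7% lower, so 2 of 9 is near that share. Over the count protocols 0 of 9 tested (NEB) to 5 of 9 tested (SMTseq4) of these partners were higher. Of all genes, 5.82% were higher in NEB and 30.4% in SMTseq4. Kdm1a, the demethylase that Gfi1 recruits, had means of 12.4 CPM in input and 23.9 in IP and did not pass (0.52 ± 0.29, adjusted p = 0.21). Of 10 partners of Tal1 and Gata1, the bridging protein Lmo2 (3.55 ± 0.31), Lyl1, a relative of Tal1 (4.20 ± 1.03), and Tcf3 (1.38 ± 0.26) were higher, and Ssbp3 (-0.94 ± 0.24) and Zfpm1 were lower, with a median of 0.64. These 3 higher and 2 lower of 10 stand beside the same 18.1% and 16.7% of all genes in Tru70. In SMTseq4, 8 of the 10 were higher and 1 lower (30.4% and 28.7% of all genes), and in NEB 1 was higher (5.82%). Ldb1, the scaffold of that complex, did not pass (0.66 ± 0.25, adjusted p = 0.067). Except for Hdac2, Ehmt2, Tcf3 and Ssbp3, these partners were named after their values were seen.

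The likeness of other genes to Gfi1 was measured over the 36 count libraries, as Pearson's r of log2(CPM + 1) after centring each protocol. The r is a description, since the libraries share mice, depth and the contrast of IP and input, and Gfi1 counts are sparse. Among 11025 genes tested in all 6 protocols, 454 had r over 0.7, so that the first places are close together. The 10 highest lay from 0.796 to 0.771, and among them were Fxr1, Abi1, Il7r, Gas8, Fam193a, Syncrip, Hnrnpa2b1, Emsy and Uimc1. Il7r, the receptor for interleukin 7 on lymphocytes, had means of 0.139 CPM in Tru70 input and 12.4 in IP, and Fxr1 44.3 and 58.8. The 10 highest genes were called higher in IP in 0 (Fxr1, Hnrnpa2b1) to 5 protocols (Il7r, Emsy). Of the members, Ikzf1 (0.660), Spi1 (0.659), Runx3 (0.653) and Runx1 (0.639) were most like Gfi1 and Klf1 the least (-0.343), with Gata1 at 0.452, Tal1 at 0.332, Cebpe at 0.107 and Gfi1b at 0.039. Among the 11025 genes, however, Ikzf1, Spi1, Runx3 and Runx1 ranked only 1417, 1449, 1630 and 1962.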

How the data were processed

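The authors trimmed reads, aligned them to GRCm38 with TopHat, counted them with HTSeq without ambiguous reads and deposited 2 values per gene and library, exon counts (whole numbers, not normalized) and RPKM. The strand setting of the counting is not given in the sources used here, and replicates were not pooled. The deposited RPKM matched whole reads over the gene span, introns included, for 88.6% of low values within 0.02. Lines that name no gene (24.2% to 98.4% of the reads listed) were left out.

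The tests on counts used edgeR 4.0.16 under R 4.3.3 (TMM, filterByExpr, glmQLFit, glmQLFTest), each protocol by itself without a mouse term, and RPKM of SMTer with limma 3.58.1 on log2(RPKM + 1). SMTer exon counts were tested as an alternative only. DESeq2 1.42.0 was another. The fits were tested on simulated data. Replicates with 1 number were taken as the same mouse, since the study's methods give 3 mice. The read totals that the study lists have replicates 1 and 3 in reverse order in Tru70, Tru4, NEB, NuG and SMTer. In SMTseq4 and SMTseq0.25 they have the same order. The reversal is alike in input and IP, so pairs within a protocol are kept, but mice with 1 number may differ between kits. The correlation of the deviations from the group means, IP against input of 1 replicate, was -0.025 to 0.446. The 10 factors, the 17 lists and the tests were chosen with earlier results of these data known. Named are the 10 factors, the 2 genes of each list with the highest Tru70 CPM where given, genes among the 10 most like Gfi1, and those marked as chosen later. Some genes are not reported here. Of 13 erythroid genes, 12 matched an identifier. Gene positions are those of GENCODE M21.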

Additional observations from a re-analysis of the deposited data

How the results depend on the processing

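Of 347 refitted values of members, 300 kept direction and side of the threshold, 39 lost their call, 5 gained one and 3 reversed. For Spi1, Ikzf1, Runx1 and Runx3 the 219 values kept the call in 193 cases. With the fractions as labelled, the genes called fell to 0 in Tru4 (from 7950), NEB (1350), NuG (5569) and SMTer (1126), and the members called higher to 0 in each of these 4. Without 1 replicate at a time, the genes called ranged from 2877 to 4533 in Tru70 (5123 with all), from 431 to 704 in NEB and from 193 to 1183 in SMTer, and the members called higher from 0 to 2 in NEB and from 0 to 1 in SMTer.

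With limma on RPKM, whose minimum left fewer genes to test, 4206 genes were called in Tru4 and 4512 in SMTseq4 (8928 with edgeR), and the members called higher were 1 in Tru70, Tru4, NEB, SMTseq4 and SMTseq0.25 and 2 in NuG. DESeq2 called 2610 genes in NEB, and it called Klf1 (-2.23, adjusted p = 0.019) and Tal1 (3.43, adjusted p = 0.031) in Tru70. Library totals, chosen after the data were seen like the reads over the whole gene, called 9392 genes in NuG. Higher and lower calls were then 3815 and 1460 in Tru70 (2665 and 2458 with TMM), 6035 and 1965 in Tru4 (4105 and 3845), 1154 and 414 in NEB (704 and 646), 6660 and 2446 in SMTseq4 (4594 and 4334), and 4019 and 1483 in SMTseq0.25 (2831 and 2449). In SMTer, no minimum RPKM left 213 genes and 0 members, exon counts 0 members, and reads over the whole gene gave 6617 genes and 4 members.

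With the mouse as a replicate block, 2480 genes were called in SMTer, and of the members only Runx3 in NEB lost its call. The Tal1 change in NuG was -0.46 with the fractions as labelled and from -0.17 (without replicate 3) to 0.56 without 1 mouse, that of Runx3 in NuG was -0.08 as labelled, and that of Epcam in Tru70 ranged from -0.63 (without replicate 2) to 0.74. Except where fewer genes or samples entered, the cause was not tested. Depth limits Gfi1, Gfi1b and Gata1 most: 3 counts were 0.066 to 6.46 CPM.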
